A study of Mus musculus with 9 samples.

Results

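Upstream transposon insertions on the autosomes other than chromosomes 7, 10 and 13 were examined in mouse medulloblastomas of the Sonic hedgehog (SHH) type. An upstream site was a position that the authors' table places 5′ of its listed gene, and the sites were chosen by their IR counts: 10 or more in an animal, and 1% or more of that animal's strongest IR site. Positions within 10 bp were merged and both IR ends were summed. Where several animals had the same called site, it was counted once, in the animal where its share was highest. The rule gave 204 upstream sites, of 2311 called IR sites in the whole genome and 1336 on the 16 autosomes used.

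The tumours came from Lazy Piggy mice, whose transposon joins parts of Sleeping Beauty (SB) and piggyBac (PB). The compared animals were 72 with tamoxifen (TAM+) and 47 without (TAM-), all carrying the Lazy Piggy element, and the labels used here give neither their age nor other alleles. The sheet's local chromosome, taken here as the donor, was 10 in 53 animals with tamoxifen and 37 without, and 7 in 19 with tamoxifen and 10 without. Among 71 animals with tamoxifen, the days listed in the sheet ran between 4 and 249, with a median of 49. IR libraries were amplified from the SB part, PB libraries from the PB part and JX libraries from their boundary.

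As background, SB and PB are cut-and-paste elements: a transposase removes the element and places it elsewhere. In cancer screens the element often carries a promoter with a splice donor. An insertion upstream of a gene can then start transcripts that run into it, if the promoter points toward the gene. Insertions inside a gene can also cut the transcript short. DNA counts show where an element sits and how abundant that insertion is, and RNA was not measured here, so the tumour label could not be set against marker genes. A gene listed beside a site is therefore only a candidate for activation.

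Sites labelled with the gene's orientation, at most 10 kb away and with at least 5% of the animal's IR counts, were taken as candidates. There were 6 such sites, and 4 in the opposite orientation passed the same distance and share cuts. Which way the element's promoter points under each label is not stated in the sources. Of the 6, the promoter windows of Olfr1424, Cldn4, Capn1 and Asns are shown because those sites lie close to them. Each window runs from 250 bases before to 50 bases after the gene's start, read 5′ to 3′ on the gene's strand, from RefSeq in build GRCm38.p6. Capitals mark CG dinucleotides, which are dense in promoters of widely expressed genes. Positions of insertions elsewhere in the text are in mm9 and are not set against these windows.
Olfr1424: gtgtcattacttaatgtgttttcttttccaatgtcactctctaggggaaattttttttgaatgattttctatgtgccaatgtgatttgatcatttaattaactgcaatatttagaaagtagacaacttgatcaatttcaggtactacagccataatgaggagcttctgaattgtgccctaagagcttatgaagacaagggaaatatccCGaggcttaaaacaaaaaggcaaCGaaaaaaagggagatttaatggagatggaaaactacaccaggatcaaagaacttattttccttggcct
Cldn4: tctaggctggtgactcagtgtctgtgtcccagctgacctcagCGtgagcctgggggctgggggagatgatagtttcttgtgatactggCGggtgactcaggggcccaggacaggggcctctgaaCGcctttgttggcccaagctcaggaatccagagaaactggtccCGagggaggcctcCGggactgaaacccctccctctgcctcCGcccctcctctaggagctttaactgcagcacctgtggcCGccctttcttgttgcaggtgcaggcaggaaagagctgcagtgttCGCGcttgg
Capn1: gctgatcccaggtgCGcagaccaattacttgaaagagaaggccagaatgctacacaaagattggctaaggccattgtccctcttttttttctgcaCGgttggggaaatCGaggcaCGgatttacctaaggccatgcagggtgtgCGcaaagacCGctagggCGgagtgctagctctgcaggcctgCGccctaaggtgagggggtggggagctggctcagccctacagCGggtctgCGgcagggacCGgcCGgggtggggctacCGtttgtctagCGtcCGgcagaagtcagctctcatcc
Asns: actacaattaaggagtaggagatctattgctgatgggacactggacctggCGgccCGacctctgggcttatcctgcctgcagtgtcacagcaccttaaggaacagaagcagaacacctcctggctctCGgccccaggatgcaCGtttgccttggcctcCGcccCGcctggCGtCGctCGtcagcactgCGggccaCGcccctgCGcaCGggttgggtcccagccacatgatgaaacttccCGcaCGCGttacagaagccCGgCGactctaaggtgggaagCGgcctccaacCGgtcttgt

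The window of Olfr1424, an olfactory receptor gene, lies at chr19:12059701-12060000 on the minus strand and held 2 CG dinucleotides. The window of Cldn4, which encodes a tight junction claudin, lies at chr5:134946885-134947184 on the minus strand and held 9. Capn1 encodes the catalytic subunit of a calcium-dependent protease. Its window, the first listed of 2, lies at chr19:6015776-6016075 on the minus strand and held 15. Asns encodes asparagine synthetase. Its window lies at chr6:7693160-7693459 on the minus strand and held 20. Over all 32851 windows of 300 bases the median was 7 CG dinucleotides, with quartiles of 3 and 20. Thus the Olfr1424 window was poor in CG and the Asns window stood at the upper quartile. None of the 4 windows held TATAAA on either strand, which 13.6% of all windows held. GACCACCCA, the binding motif of GLI proteins that act at the end of SHH signalling, was in none of the 4 and in 0.253% of all windows.

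Sites upstream of 3 microRNA genes were also called. Their mature sequences, from RefSeq, are shown because the listed product is the RNA itself, with the seed (bases 2 to 8) in capitals.
mmu-miR-5114: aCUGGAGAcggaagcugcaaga
mmu-miR-137-5p: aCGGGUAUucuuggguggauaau
mmu-miR-137-3p: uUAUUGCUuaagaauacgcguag
mmu-miR-882: aGGAGAGAguuagcgcauuagu

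No seed was shared between these arms. The site of Mir5114 lay 11.9 kb upstream in the opposite orientation and held 11.7% of its animal's IR counts. The site of Mir137, a microRNA abundant in neurons, lay 22.6 kb upstream in the opposite orientation with 4.32%, in an animal without tamoxifen. The site of Mir882 lay 3.90 kb upstream in the opposite orientation with 0.182%, in the animal with the most called sites described next.

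Several libraries stood apart. An animal with tamoxifen in lane 2 had 334 called IR sites and 33 of the upstream sites, and its 295999 IR counts were the fewest of all animals compared. Its highest IR site held 6.33% of its counts, and its upstream sites held 0.0649% to 1.73%. Of those 33 sites, 1 had JX counts within 100 bp and 2 had PB counts. Results below that rest on this animal are also given without it where that was computed. The other animals held 171 upstream sites. An untreated animal of lane 9 shared upstream positions with an animal of no given arm in lane 2, among them those of Serpina1a, at 12.9% and 12.6% of IR counts, and Sva, at 11.2% and 9.53%. An animal with tamoxifen in lane 3 shared 2 with another animal of no given arm in lane 9, at 5.48% and 1.41% for Gm5803 and 1.21% and 0.537% for Mup5. The animals of no given arm entered no comparison. Whether these pairs are the same tumours was not tested.

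IR depth per animal ran from 295999 to 6337624 with tamoxifen (median 3115243) and from 1236372 to 5553180 without (median 3143569). The upstream sites had between 192 and 1696693 IR counts, with a median of 18890. The widest 95% Wilson interval of a site's share spanned 0.124 percentage points. These intervals treat each read as independent and cover no spread between libraries or animals. Amplified reads are not independent molecules, so the intervals are too narrow even for counting error.

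The upstream sites were 139 in animals with tamoxifen and 65 in animals without. They were listed beside 194 genes, of which 184 had 1 site and 10 had 2. By RefSeq, 170 of the genes were protein coding, 17 were long non-coding RNAs, 3 were microRNAs and 2 were transcribed pseudogenes. For 2 of the listed names RefSeq gave no match. Of 10932 genes with an upstream position at any count on these chromosomes, 194 or 1.77% had a called site. Upstream sites were 15.3% of the called sites on these chromosomes, against 50.6% intronic, 13.5% downstream, 2.69% exonic and 17.96% with no listed gene. By chromosome they numbered between 7 on chromosome 12 and 21 on chromosome 6. Chromosome 19 had 15, or 28.3% of its called sites, and 9 without the animal with the most sites. These shares were set by the rule and were not tested.

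The rule's threshold cut through a dense range of values. Just inside were the sites of Dnajc5b at 1.003%, Ei24 at 1.02% and Uck2 at 1.03% of their animal's highest site. Just outside were sites of Klf4 at 0.998%, Apob at 0.984% and Sod1 at 0.982%. In all, 144403 merged upstream positions lay below the call.

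The listed distance to the gene ran between 0.351 kb and 561.8 kb. The median was 29.0 kb and the quartiles were 14.1 and 61.1 kb. Only 8 sites lay within 2 kb and 36 lay between 2 and 10 kb. A further 95 lay between 10 and 50 kb, 48 between 50 and 100 kb and 17 beyond 100 kb. In all 21.6% of upstream sites lay within 10 kb, against 29.4% of the 180 downstream sites. The median distance was 29.0 kb for downstream sites as well. Upstream sites had a median distance of 28.4 kb with tamoxifen and 29.7 kb without.

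**Figure D1:**
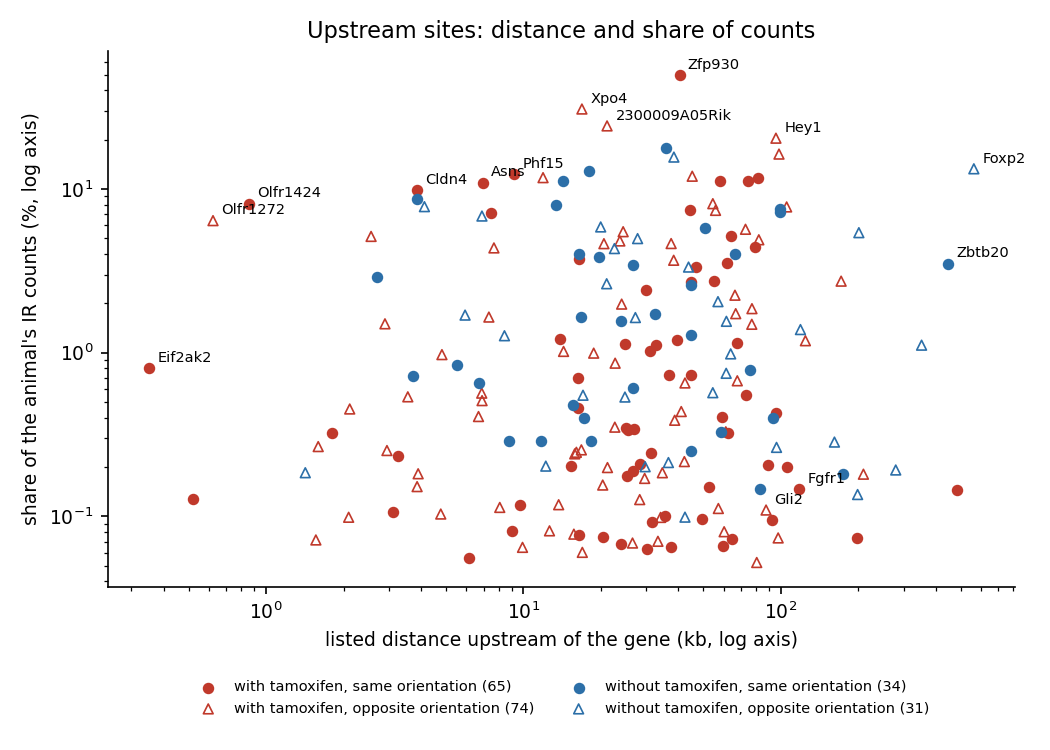
Listed distance upstream of the gene in kb (horizontal, log axis) and share of the animal's IR counts in percent (vertical, log axis) for each of the 204 upstream sites. Red stands for animals with tamoxifen and blue for animals without, filled circles for the gene's orientation and open triangles for the opposite one. High shares occur at all distances, from Olfr1272 at 0.622 kb to Foxp2 at 561.8 kb.

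The most abundant upstream sites held a large part of their animal's IR counts. The site of Zfp930, a zinc finger gene, lay at position 71714057 of chromosome 8, 40.4 kb upstream in the gene's orientation. It held 1242450 counts or 49.6% of the counts of an animal with tamoxifen (95% Wilson interval 49.5 to 49.7%). Its JX count was 3819. It had no PB count within 100 bp, but 4202 within 1000 bp.

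The site of Xpo4, a nuclear transport receptor gene, lay at position 58300656 of chromosome 14, 16.9 kb upstream in the opposite orientation. It held 30.8% of IR counts and 67.3% of PB counts of an animal with tamoxifen. The position also held 0.808% of IR counts in another animal with tamoxifen of the same lane 4 and 2.64% in a control tumour of lane 8. Whether reads moved between libraries was not tested.

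Other leading sites of animals with tamoxifen were those of 2300009A05Rik, Hey1 and Foxo6. The 2300009A05Rik site held 24.3% of IR counts, 21.1 kb upstream in the opposite orientation. Hey1 encodes a transcriptional repressor that Notch signalling induces. Its site, at position 8762685 of chromosome 3, lay 95.6 kb upstream in the opposite orientation and held 20.4%. Foxo6 encodes a forkhead transcription factor, and its site lay 98.3 kb upstream in the opposite orientation with 16.3%. The Foxo6 site had 110620 JX counts and 2 PB counts within 100 bp, and 7034 PB counts within 1000 bp.

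Further sites above 10% of the IR counts were found in both arms. With tamoxifen, Phf15 (now Jade2, a chromatin-binding PHD finger gene) had 12.3% at 9.20 kb in the gene's orientation. In that arm 6330403A02Rik (now Stum) had 11.96% at 45.2 kb in the opposite orientation. Without tamoxifen, 2700078E11Rik (now Cacul1) had 17.9% at 35.7 kb in the gene's orientation. Acp6, a lipid phosphatase gene, had 15.7% at 38.4 kb in the opposite orientation. Foxp2, a forkhead transcription factor of Purkinje cells and other neurons, had 13.3% at 561.8 kb in the opposite orientation. Serpina1a, an alpha-1 antitrypsin gene of the liver, had 12.9% at 17.96 kb in the gene's orientation, in the animal that shares positions with one of no given arm.

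Over all upstream sites the share of IR counts ran between 0.0522% and 49.6%, with a median of 0.664%. The median was 0.429% with tamoxifen and 1.38% without. Leaving out the animal with 33 sites, it was 0.982% over the other 106 sites with tamoxifen. At least 10% was reached by 17 sites in 15 animals. At least 5% was reached by 38 sites in 30 animals, 24 of them with tamoxifen and 14 without. Among the called sites counted in its animal, an upstream site was the highest in 9 cases and in the top 3 in 17. Sites counted in another animal do not enter these ranks. Thus Foxp2, Tmem106b and 6330403A02Rik ranked highest at 71.5%, 85.7% and 98.9% of their animal's strongest IR site. The share entered the rule, so these values are a description.

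The 12 nearest sites in the gene's orientation held between 0.0558% and 9.87% of IR counts, beside a median of 0.664% over all upstream sites. The site of Eif2ak2, which encodes a kinase that senses double-stranded RNA, lay 0.351 kb upstream with 0.801%. It had 82184 JX counts against 24266 IR counts. The site of A730069N07Rik, a synonym of Dlc1 in RefSeq, lay 0.519 kb upstream with 0.128% and no JX or PB count. The Olfr1424 site lay 0.860 kb upstream with 8.15%, the second highest of the called sites counted in its animal.

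Further sites in the gene's orientation were those of Olfr196 (2.71 kb, 2.90%), the proton pump gene Atp6v0c (3.12 kb, 0.106%) and Crip3 (3.25 kb, 0.232%). The Cldn4 site at 3.85 kb held 9.87% with tamoxifen, and the Capn1 site at 3.86 kb held 8.73% without. Both were the fourth highest of the called sites counted in their animals. Calhm1, an ion channel gene, had 0.842% at 5.51 kb, and Ang4, a ribonuclease gene, had 0.0558% at 6.16 kb. The Asns site lay 6.93 kb upstream with 10.9% of IR counts and 33.1% of PB counts, and was the highest IR site of an animal with tamoxifen.

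The nearest sites in the opposite orientation spanned a like range. The site of the olfactory receptor gene Olfr1272 lay 0.622 kb upstream with 6.40% and was the highest of its animal. It held 184146 PB counts and 49055 JX counts, and 0.174% of IR counts in another animal with tamoxifen. The sites of Myoz1 (1.42 kb, 0.184%), Lbx1 (1.56 kb, 0.0716%), Sfi1 (1.59 kb, 0.266%), the complement gene C3 (2.09 kb, 0.0985%) and Nod1 (2.11 kb, 0.452%) were all under 1%. B3gnt2, a glycosyltransferase gene, had 5.13% at 2.56 kb. Rxfp1, a relaxin receptor gene, had 1.499% at 2.90 kb.

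At the far end, the Cdh4 site lay 481.7 kb and the Zbtb20 site 445.8 kb upstream, both in the gene's orientation. Cdh4 encodes a cadherin and had 0.144% of IR counts with tamoxifen. Zbtb20 encodes a zinc finger transcription factor and had 3.49% without. The Chd9 site lay 279.3 kb upstream in the opposite orientation with 0.192%. Olfactory receptor genes, Serpina1a and Mup5 belong to families of many related genes, so reads beside them may not be placed uniquely. This was not tested. At such long distances the listed gene depends on the authors' assignment, whose rule the sources do not state.

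In orientation the sites were nearly even, with 99 in the gene's orientation and 105 in the opposite one. Animals with tamoxifen had 65 and 74, animals without had 34 and 31. Without the animal with the most sites the split was 85 and 86. Within 10 kb of the gene 19 sites had the gene's orientation and 25 the opposite one, and beyond 100 kb 6 and 11. Median distances were 30.9 kb for the gene's orientation and 27.2 kb for the opposite one. Of the 38 sites with at least 5% of IR counts, 19 had each orientation.

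**Figure D2:**
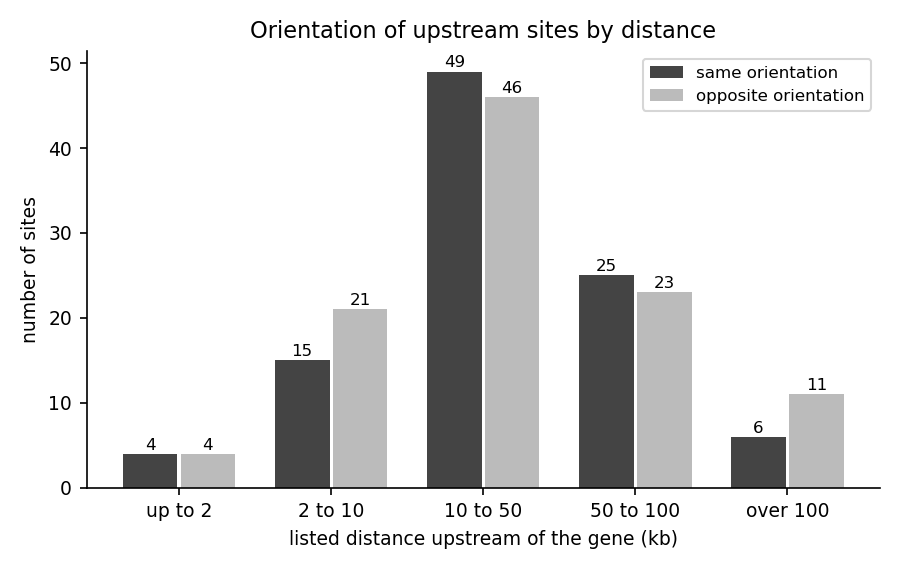
Number of upstream sites (vertical) by listed distance to the gene in kb (horizontal), in the gene's orientation (dark bars) and in the opposite one (light bars). The bars differ most between 2 and 10 kb, with 15 against 21 sites, and beyond 100 kb, with 6 against 11.

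The orientation label needs care. The table labels each position, and 200 of the 204 sites had at least 95% of their IR counts under 1 label. By ends, 89 sites had over 99% of counts from the left SB end, 60 over 99% from the right end, and 55 had at least 1% from each. Among those 55, both ends carried the same label in 54. Where the rarer end had under 1% of counts, the labels matched in 36 of 109 sites. PB counts carried the opposite label to IR counts in 121 of 123 sites, and JX counts the same label in 134 of 164. Which way the element's own promoter points under each label is not stated in the sources. The words "gene's orientation" therefore refer to the IR label alone.

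In 5 cases, sites 112 to 117 bp apart in 1 animal were counted separately, one from the left end and one from the right. Among them were those of Pax8, Lmo2, Ets2 and 5730403I07Rik, and the orientation label was the same within each pair. Counting each pair once would leave 199 sites. For Lmo2, a haematopoietic transcriptional adaptor gene, the members of the pair held 2.60% and 1.28% of the IR counts of an untreated animal. For Pax8, a paired-box transcription factor gene, they held 1.49% and 1.86% in an animal with tamoxifen. Map4k3, Rorb and 2200002K05Rik also had 2 sites in 1 animal, further apart. The Map4k3 sites lay 44.6 and 55.7 kb upstream with 2.72% and 7.40%, in different orientations. The Rorb sites lay 30.9 and 81.3 kb upstream with 1.02% and 11.7%, both in the gene's orientation.

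With each shared site counted in 1 animal, 2 genes had upstream sites in more than 1 animal. Xpo4 and Olfr1272, whose sites were also called in a second animal, bring this to 4 without that rule. Alx4, a homeobox gene, had sites in 2 animals, both without tamoxifen. One lay 54.4 kb upstream in the opposite orientation with 0.569%, the other 50.6 kb upstream in the gene's orientation with 5.78%. The long non-coding RNA gene 5330426P16Rik (now Dubr) had sites in 2 animals, both with tamoxifen. One lay 30.1 kb upstream in the gene's orientation with 0.0629%, the other 82.1 kb upstream in the opposite orientation with 4.89%. Of the 194 genes, 18 also had a called intronic site and 1 a called downstream site, together 9.79%. Sfi1, whose product binds centrins, had 3 intronic sites in 2 further animals. Its upstream site had 97 JX counts and no PB count within 1000 bp. Whether reads at Sfi1 were placed uniquely was not tested.

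Genes with a called IR site of any kind in at least 3 animals were compared between arms over animals by Fisher's exact test (two-sided). Of 40 genes tested, 0 passed at an adjusted p of 0.05, which is 0% of them, and 0 of those with an upstream site had an unadjusted p under 0.05. The 40 included 2 genes with an upstream site. Alx4 was hit in 0 animals with tamoxifen and 3 without (p = 0.0592, Fisher's exact test, adjusted p = 0.739). Sfi1 was hit in 3 with tamoxifen and 0 without (p = 0.277, Fisher's exact test, adjusted p = 0.739). A gene hit in 3 animals cannot reach a p below 0.0592 in this design.

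Gene lists of SHH signalling, growth and chromatin control were then examined. Of 9 measured SHH pathway genes 1 had a site, the transcription factor Gli2. Its site lay 87.6 kb upstream in the opposite orientation with 323 counts or 0.109%, in the animal with the most sites, and had no JX or PB count. Of 18 genes altered in human SHH medulloblastoma 2 had a site, Gli2 and the growth factor receptor gene Fgfr1. The Fgfr1 site lay 117.6 kb upstream in the gene's orientation with 0.146%, with 158 JX and 2541 PB counts. Fgfr1 was also the 1 hit among 27 growth signalling genes.

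Of 32 chromatin regulators 3 had a site. Tet2, which oxidises methylated cytosine in DNA, had one 44.5 kb upstream in the gene's orientation with 7.39% of IR counts and 13.2% of PB counts, in an animal with tamoxifen. Chd6 and Chd9, which encode chromatin remodellers, had sites with 0.786% and 0.192%, both without tamoxifen. Of 63 potassium channel genes 3 had a site, among them Kcnq5. The Kcnq5 site lay 14.3 kb upstream in the opposite orientation with 1.02%. Of 36 cerebellar lineage transcription factors and of 19 cell cycle and DNA damage genes, 0 had one. Over all genes with an upstream position the share was 1.77%, and nothing was read from counts of 0 to 3.

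JX and PB libraries were not used in the call. Of the 204 upstream sites 164 (80.4%) had JX counts of the same animal within 100 bp, and 163 of 171 (95.3%) outside the animal with the most sites. PB counts were found within 100 bp at 123 sites (60.3%), and at 165 (80.9%) within 1000 bp. Outside the animal with the most sites they were found at 121 of 171 (70.8%), and at 163 (95.3%) within 1000 bp. Both kinds were present at 115 sites and neither at 32, of which 30 belonged to the animal with 33 sites and 2 to other animals. In other animals of the same lane, the same positions had JX counts in 26.3% of cases on average and PB counts in 5.81%. At least 10 JX counts were found at 79.4% of sites in the own animal, against 5.86% in other animals of the lane. These shares and the lane averages include the animal with the most sites.

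**Figure D3:**
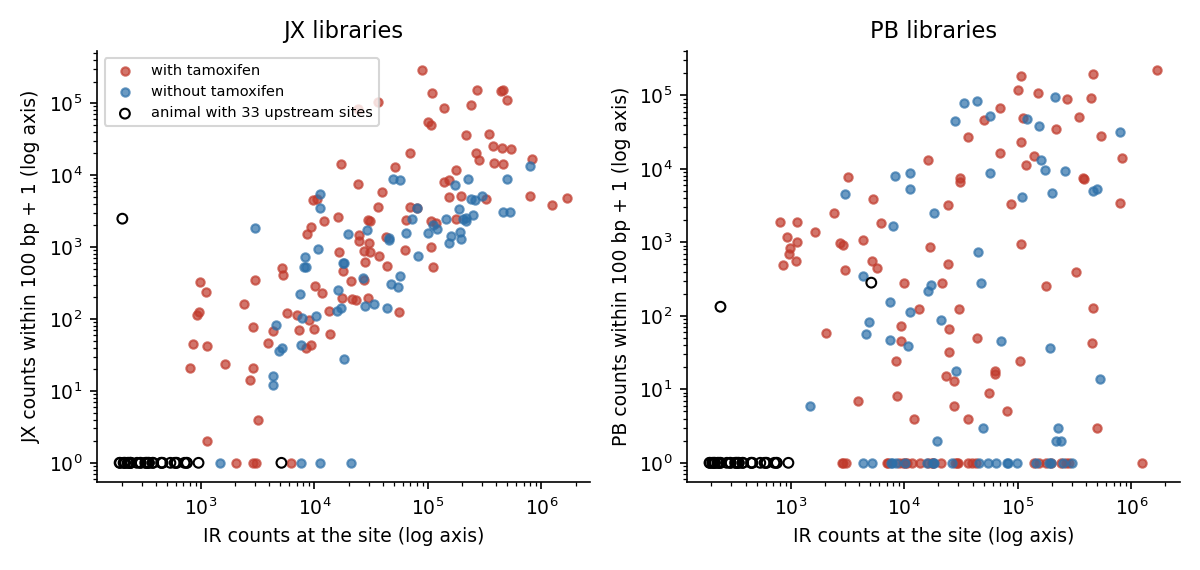
IR counts at each upstream site (horizontal, log axis) against JX counts within 100 bp plus 1 (left, log axis) and PB counts within 100 bp plus 1 (right, log axis), for animals with tamoxifen in red and without in blue. Open circles mark the animal with 33 upstream sites, of which 32 sit at 0 JX counts. PB counts range from 0 to 219109.

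The size of the JX and PB signal varied widely between sites. At least 10% of the animal's JX counts lay at 7 upstream sites, 7 of the 139 with tamoxifen and 0 of the 65 without. Among these, the Alg10b and Iqsec1 sites came from the same animal. The highest was the Gm839 site with 28.4% of JX counts but 4.81% of IR counts, and a control DNA of lane 1 held 1.24% of its IR counts at that position. At least 10% of the animal's PB counts lay at 14 upstream sites, 11 of the 139 with tamoxifen and 3 of the 65 without. Neither split was tested, and the same share over all called sites was not computed. After Xpo4, the highest were Phf15 with 33.4%, Asns with 33.1%, Acp6 with 30.5% and 2300009A05Rik with 29.7%. The abundant IR sites of Foxp2, Tnfrsf21 and App had 0 PB counts within 100 bp, but 3772, 13312 and 1036 within 1000 bp. These sites were chosen after their values were seen, apart from those the naming rule gives. Median shares of the animal's JX counts were 0.0689% with tamoxifen and 0.218% without, but 0.292% with tamoxifen when the animal with 33 sites was left out, which turns the direction.

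The arms were compared over animals. Upstream sites were called in 41 of 72 animals with tamoxifen (56.9%) and in 27 of 47 without (57.4%). The number per animal ran from 0 to 33 with tamoxifen, median 1, and from 0 to 5 without, median 1. The ranges overlapped, and all 4 animals with over 5 sites (33, 13, 9 and 6) had tamoxifen. Animals with tamoxifen averaged 1.93 ± 4.32 upstream sites (SD, n = 72), and animals without averaged 1.38 ± 1.58 (SD, n = 47). The difference of 0.548 was smaller than the spread (p = 0.491, two-sided permutation test, adjusted p = 0.942 over 6 arm comparisons). Without the animal with 33 sites the means were 1.49 with tamoxifen and 1.38 without, a difference of 0.110. With the call lowered to 0.1% of the highest site they were 21.7 with tamoxifen and 7.94 without, a difference of 13.8 (p = 0.0691, permutation test, adjusted p = 0.207). That repeat kept the animal with 33 sites and was not run without it. Within lanes the mean was higher with tamoxifen in 3, lower in 5 and equal in 1. By donor the difference was 0.735 for chromosome 10 and -0.153 for chromosome 7, and the test of their difference did not pass (difference 0.888, p = 0.471, permutation test).

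**Figure D4:**
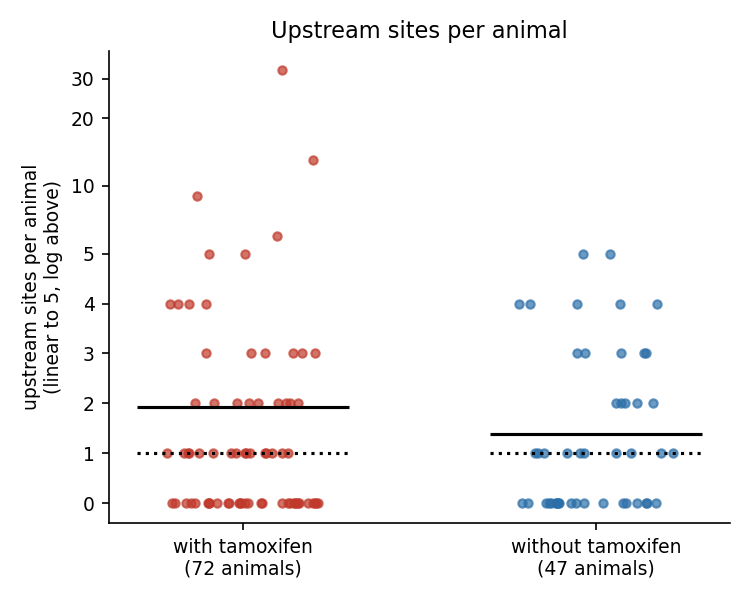
Upstream sites per animal (vertical, linear up to 5 and log above) for 72 animals with tamoxifen (left) and 47 without (right). Each point is an animal, solid lines are means and dotted lines medians. Both medians are 1, and the highest values are 33 with tamoxifen and 5 without.

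On the 16 autosomes used, upstream sites averaged 13.3 ± 15.1% of an animal's called sites with tamoxifen (SD, n = 68). Without tamoxifen the average was 14.4 ± 16.1% (SD, n = 47; p = 0.722, permutation test, adjusted p = 0.942). Animals with no called site on these autosomes were left out. The upstream share was higher with tamoxifen in 5 lanes and lower in 4. Of an animal's upstream sites, 47.02 ± 36.96% had the gene's orientation in animals with tamoxifen (SD, n = 41) and 47.3 ± 40.8% in animals without (SD, n = 27; p = 0.973, permutation test). Lanes split into 4 higher, 4 lower and 1 equal. For this and the later measures over upstream sites, lanes 2, 3 and 5 rested on 1 untreated animal each. Lane 9 rested on 1 animal with tamoxifen. By donor chromosome the difference was 11.9 percentage points for chromosome 10 and -35.1 for chromosome 7 (p = 0.0313, permutation test, adjusted p = 0.0940), the second over 13 animals with tamoxifen and 7 without. The test of the difference between donors, 46.97 points, did not pass after adjustment over the 6 arm comparisons (p = 0.0165, permutation test, adjusted p = 0.0989).

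Sites within 100 kb made up 92.8 ± 18.9% in animals with tamoxifen (SD, n = 41) and 83.8 ± 30.4% in animals without (SD, n = 27; p = 0.139, permutation test, adjusted p = 0.832). Lanes were higher with tamoxifen in 3, lower in 5 and equal in 1. By donor the difference was 4.07 points for chromosome 10 and 20.7 for chromosome 7 (p = 0.0307, permutation test, adjusted p = 0.0940), and the test between donors did not pass (p = 0.217, permutation test, adjusted p = 0.434). JX counts were present at 94.99 ± 19.4% with tamoxifen (SD, n = 41) and 90.9 ± 26.9% without (SD, n = 27; p = 0.459, permutation test). That was higher with tamoxifen in 3 lanes, lower in 2 and equal in 4. PB counts were present at 65.9 ± 40.4% with tamoxifen (SD, n = 41) and 68.5 ± 33.1% without (SD, n = 27; p = 0.785, permutation test), higher in 3 lanes and lower in 6. None of the 6 differences passed the test. With arms permuted within lanes, over the animals sequenced in 1 lane (67 with tamoxifen and 45 without for sites per animal, 38 and 27 for the 4 measures over upstream sites), all 6 adjusted p were 1 (permutation test). The difference within 100 kb was then -0.0665 points, and that in PB presence -12.8 points (unadjusted p = 0.248, permutation test).

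Upstream sites were then set against other sites of the same animals. In 46 animals with both kinds, 47.6 ± 34.3% of upstream sites and 53.4 ± 39.2% of downstream sites had the gene's orientation (SD; p = 0.456, two-sided sign-flip permutation test, adjusted p = 0.701 over 4 comparisons). The upstream share was higher in 16 animals, lower in 22 and equal in 8. In 67 animals with both kinds, the share was 46.4 ± 37.9% for upstream and 55.8 ± 29.5% for intronic sites (p = 0.119, permutation test, adjusted p = 0.478). It was higher upstream in 25 animals, lower in 34 and equal in 8. This comparison depended on how shared sites were counted. Where a site called in several animals counted in each of them, which adds mostly intronic sites, the difference was -16.8 percentage points (adjusted p = 0.0116, permutation test). The same position then enters several animals, so they are not independent, and the test makes no allowance for that. By donor, with shared sites counted once, the difference was -16.6 percentage points for chromosome 10 (p = 0.0298, permutation test, adjusted p = 0.119) and 7.37 for chromosome 7.

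**Figure D5:**
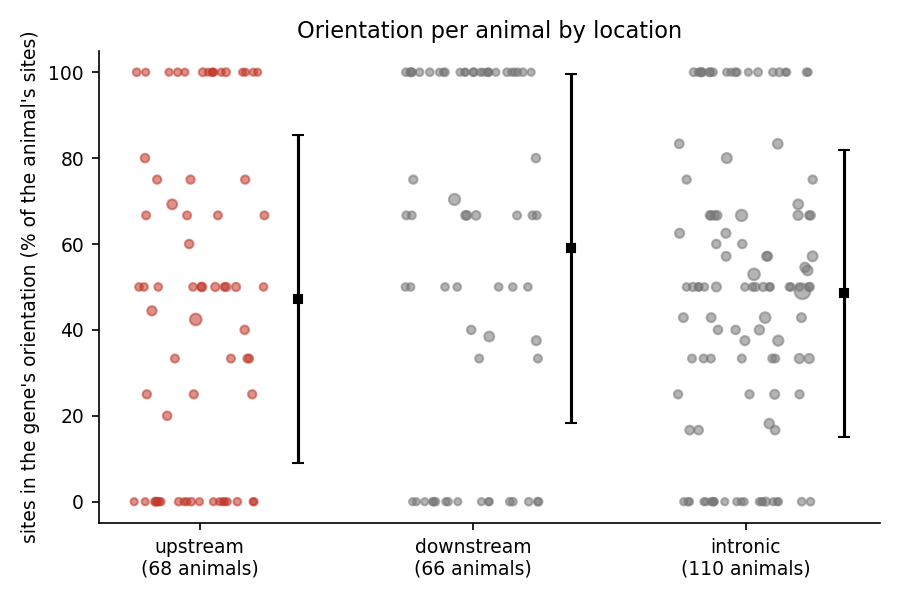
Share of an animal's called sites with the gene's orientation in percent (vertical) for upstream, downstream and intronic sites on the chromosomes used. Each point is an animal, larger for more sites, and squares with bars are means ± SD: 47.1 ± 38.2% upstream, 59.0 ± 40.6% downstream and 48.5 ± 33.5% intronic, over all animals with such sites.

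JX counts were present at 93.3 ± 22.7% of upstream and 94.5 ± 18.6% of intronic sites of the same 67 animals (p = 0.701, permutation test). PB counts were present at 67.9 ± 36.8% of upstream and 71.3 ± 28.9% of intronic sites (p = 0.545, permutation test, adjusted p = 0.701). With shared sites counted in each animal the PB difference was -11.9 percentage points (adjusted p = 0.0263, permutation test). The animals are again not independent in that count.

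At most upstream positions the IR counts lay mainly in 1 animal. The sites were called from these same counts, and a shared site was counted where its share was highest. The rule thus favours such concentration, and the values are a description. More than 90% of the position's IR counts came from 1 animal at 202 of 204 sites, although 180 were listed in at least 1 further animal and the median was 5 animals. The 1 position spread over animals was the Gfra1 site, with 203 counts in the animal with the most sites. It was listed in 118 animals and this animal held 6.16% of its counts. Of the upstream positions, 31 had IR counts in control tumours and 16 of these had at least 10. Control DNAs had counts at 27 of them, 6 with at least 10. Called by the same rule, the 5 control tumours had 0, 0, 1, 3 and 80 upstream sites of their own. The 9 control DNAs had 0 in 5 cases and 2, 3, 7 and 11 in the others.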

How the data were processed

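The values are unscaled counts that the authors deposited for each library and insertion position. Coordinates are in mm9, per the submitters' processing notes. For the aligner, counting rule and gene annotation, nothing is stated (not given in the sources used here). Gene, location, distance (functional_effect, in kb) and orientation are other columns of the authors' table. Libraries were tied to animals, arms, ends, lanes and donor chromosomes through the authors' deposited sample sheet. An animal was 1 replicate, and separate spellings of 1 ID were joined. The 9 lanes are the deposited samples and were treated as batches.

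Sites were called as stated in the report, and a site's orientation was the label with more IR counts. Means of the arms were compared by permutation and locations within animals by sign-flip permutation, two-sided, each with 100000 resamples, and genes with Fisher's exact test. Benjamini-Hochberg adjustment used a threshold of 0.05. The animals are those the sheet lists, and whether they share litters is not given. Named genes were those with sites in at least 2 animals, the 12 highest shares, the 12 nearest in the gene's orientation, the 8 nearest opposite, the 5 farthest and members of the gene lists, with chromosome 18 left out. Some results that this rule gives are not reported here. The members, lists and rules were chosen with earlier results of these data known. The tests were tested on simulated data. Promoters of 127 of the 194 genes were in the RefSeq table. Python 3.11.15, numpy 2.4.6, pandas 2.3.3 and scipy 1.17.1 were used.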

Additional observations from a re-analysis of the deposited data

Results flagged for a closer look

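Upstream sites per animal were compared within each arm and lane. In 13 groups of 4 to 10 animals, 4 had a highest animal far from the next one. The rule flags about 1 group in 20 by chance for continuous values, a rate that does not hold for small counts with many zeros, where 1 site can set a flag, so no excess is read from this. With tamoxifen, the highest animal of lane 1 had 13 sites and the next had 5 (7 animals), and that of lane 7 had 4 sites and the next had 1 (7 animals). Without tamoxifen, the highest of lane 2 had 1 site and the others 0 (4 animals), and that of lane 5 had 4 sites and the others 0 (4 animals). The causes were not tested. The difference between arms in the share of upstream sites with the gene's orientation was 11.9 percentage points for donor chromosome 10 and -35.1 for donor chromosome 7. The gap between donors of 46.97 points had p = 0.0165 (permutation of arms within donors), and an adjusted p of 0.0989 over 6 measures, so it did not pass. In data outside the comparisons, the 8 animals of no given arm had 87 upstream sites called by the same rule, of which 75 lay in 1 animal and the others had 0, 0, 1, 1, 2, 3 and 5.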

How the results depend on the processing

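Of 189 repeats of the comparisons under other settings, 165 kept direction and side of the threshold, 19 turned a difference that had not passed, 2 passed, and 3 moved the number of sites by over 1.5 times. The 108 repeats for the 12 highest single sites kept their shares. The number of upstream sites was 1936 with at least 0.1% of the highest site, 98 with at least 5% and 58 for donor chromosome 7, against 204. It was 171 without the animal with the most sites and 165 when both IR ends had to be listed. TAM+ minus TAM- turned as follows. Sites per animal differed by -0.0103 at 5% and -0.153 for donor chromosome 7, and the upstream share by 0.249 percentage points at 5%. The share in the gene's orientation differed by 0.708 with merging within 100 bp, 11.9 for donor chromosome 10, 0.0911 with merging within 150 bp, 2.25 with arms permuted within lanes and 1.62 without the 2 animals that share positions with animals of no given arm. The share within 50 kb differed by -1.39, and that within 100 kb by -0.0665 within lanes. JX presence differed by -2.33 at 0.1%, -3.23 at 5% and -1.08 for donor chromosome 10, and PB presence by 9.13 at 5% and 2.67 within 10 bp. Upstream minus intronic orientation was 7.37 for donor chromosome 7, JX presence 1.20 at 0.1% and 0.252 for donor chromosome 10, and PB presence 3.07 for donor chromosome 7. Counting shared sites in every animal, with 904 intronic and 206 upstream sites, gave -16.8 for orientation (adjusted p = 0.0116, permutation test, range over alternatives 0.0116 to 0.825) and -11.9 for PB presence (adjusted p = 0.0263, permutation test, range 0.0263 to 1). In that count the same position enters several animals, which are then not independent. The causes were not tested. The 150 bp merging, the permutation within lanes, the separate spellings of 1 ID and leaving out those 2 animals were chosen after seeing the data. No paired analysis was possible because the animals of the arms share no replicate numbers, and lane was used as a block instead. Depth is lowest in the animal with 295999 IR counts, where the call reached down to 192 counts.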

Other observations

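Some further upstream sites lay beside genes for transcription factors of blood formation, a group picked with the values in view. The Runx1 site lay 37.5 kb upstream in the opposite orientation with 4.64% of IR counts, in an animal with tamoxifen. The Erg site lay 46.9 kb upstream in the gene's orientation with 3.35% and 86757 JX counts, also with tamoxifen. The Mecom site lay 19.7 kb upstream in the gene's orientation with 3.82%, in an animal without tamoxifen. The paired sites of Ets2, 26.8 and 26.7 kb upstream in the gene's orientation, held 0.344% and 0.189% with tamoxifen. The Fzd9 site, beside a Wnt receptor gene, lay 19.9 kb upstream in the opposite orientation with 5.86% in an animal without tamoxifen that also holds the Mir137 site. No set of such genes was tested.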
